A study of Mus musculus with 13 samples.

Results

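The transcriptome of mouse embryonic fibroblasts (MEFs) depleted of Setdb1, with no DNA methylation inhibitor added, is described here across genes. The comparison used 6 of the 13 libraries of the series: 3 given a hairpin against Setdb1 and 3 given a control hairpin. A hairpin is a short RNA, expressed from an integrated retrovirus, that directs the degradation of a matching transcript. Setdb1 hairpin replicates A and B carried shSetdb1.4 and the remaining one carried shSetdb1.6. Control replicates A and B carried a non-silencing hairpin and the remaining one a hairpin against luciferase, a gene that mouse cells lack. The genes described are the 13134 of 25965 gene intervals whose level, in reads per 1000000 reads (RPM), was 1 or more in 3 or more of the 12 libraries with a hairpin, 6 of which also received 5-azacytidine.

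Per the study's methods, the MEFs came from female mid-gestation embryos, were selected with puromycin from 24 h after transduction and were harvested on day 7. All carried an X chromosome with a deletion of the A repeat of Xist opposite an X with a Pgk1 variant, so that 1 X was always the inactive one. The study's results state that the Setdb1 hairpins went into fibroblasts with 1 gene-trapped copy of Setdb1 and the non-silencing hairpin into wild-type fibroblasts. The luciferase cells have no stated genotype. No label gives the genotype or embryo of a library, so the hairpin and the genotype of the cells cannot be told apart. Nothing states that the 3 libraries of a group came from separate embryos or cultures, and p-values then measure only the spread between these libraries.

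SETDB1 is a methyltransferase for lysine 9 of histone H3. It is brought to its targets by TRIM28 and KRAB zinc-finger proteins, or by the HUSH complex, and it is kept in the nucleus and protected from degradation by its partner ATF7IP. It is best known for silencing endogenous retroviruses, germline genes and clusters of zinc-finger genes in embryonic stem cells and germ cells. Fibroblasts keep the positional identity of their origin in their Hox genes, proliferate in culture and enter senescence through the cyclin-dependent kinase inhibitors of the Cdkn2a locus.

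The hairpin sequences are shown because both were read against the Setdb1 transcripts of GENCODE vM21 (GRCm38) to place their targets. Each matched 21 bases without a mismatch, in coding exon 16 of 22 at chr3:95327805-95327825 for shSetdb1.4 and in coding exon 5 of 22 at chr3:95348003-95348023 for shSetdb1.6, both on the minus strand. The guide strands are written 5′ to 3′, with the seed (bases 2 to 8) in capitals.
shSetdb1.4 guide: tTTGTCTGcaaagtcatctgt
shSetdb1.6 guide: tAGATCTTgagaactgctttt
The seeds differ, and the targets lie in different exons.

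Setdb1 (ENSMUSG00000015697, chromosome 3, 95323525 to 95357202, minus strand) was at 46.1, 46.3 and 46.4 RPM in the non-silencing A, non-silencing B and luciferase libraries. With shSetdb1.4 it was at 15.4 and 14.7 RPM, and with shSetdb1.6 at 12.1 RPM. The Setdb1 hairpin libraries all lay below the controls, and the transcript left was 33.2%, 31.8% and 26.2% of the control mean. On the log2 scale Setdb1 changed by -1.73 (SE 0.11, adjusted p = 1.52e-06), where fold changes are Setdb1 hairpins minus control hairpins and adjusted p-values come from limma with Benjamini-Hochberg adjustment over all genes tested. Genes with an adjusted p under 0.05 are called changed.

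The 6 libraries implied totals of 41.9 to 58.8 M reads, and 86.9% to 87.8% of these fell within genes of the table. Of the genes tested, 12.4% changed (1630 genes), 9.01% higher (1183 genes) and 3.4% lower (447 genes) with Setdb1 hairpins. The median size of the change was 0.36 on the log2 scale for genes that rose and 0.34 for genes that fell. At least 2-fold changes were seen for 0.906% of the genes upward (119 genes) and for 0.228% downward (30 genes). The Setdb1 hairpin and control libraries did not overlap for 1628 of the 1630 changed genes, and for 34.4% of all genes tested. The share of changed genes that were higher was 72.6% with the values as deposited, 48% after centring each library on its median and 54.7% after quantile normalization, so small changes of either sign depended on the scaling. The changed genes numbered 1648 after median centring and 1457 after quantile normalization, so more genes fell than with the values as deposited. List counts given below under these scalings have no share of all genes beside them.

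**Figure D1:**
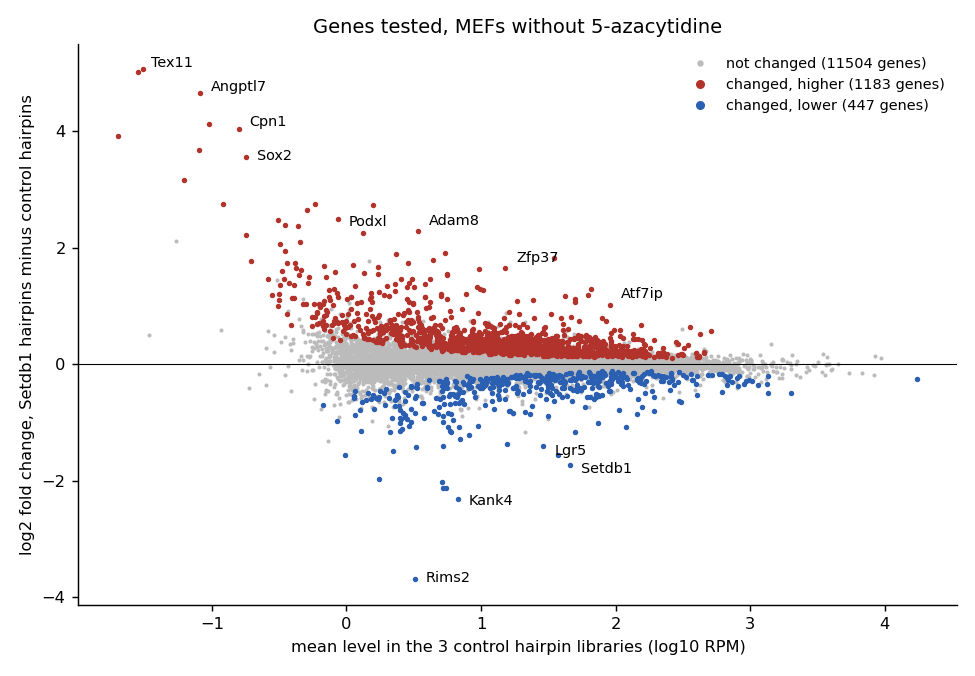
Each point is 1 of the genes tested, placed by its mean level in the 3 control hairpin libraries (log10 RPM) and its log2 fold change, Setdb1 hairpins minus control hairpins; the 1 gene with no control read (Tex19.1) is not drawn. The largest rises are of genes under 1 RPM in the controls, Rims2 stands alone among the falls, and most of the 1183 higher and 447 lower genes lie close to 0.

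The largest rises were of genes that were low in the controls. Of the 71 tested genes whose control mean was under 0.5 RPM, 39 rose and 0 fell, and 37 of these rises were at least 2-fold. Among the 1797 genes over 100 RPM, 91 rose and 94 fell, and 0 rose at least 2-fold. The filter plays a part in the first count, since a gene that low in the controls entered the test only through the other libraries. As many as 78 tested genes were under 1 RPM in every control hairpin library, with and without 5-azacytidine.

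The genes with the largest rises were nearly silent in the controls and are known from different tissues. Angptl7, a secreted angiopoietin-like protein, was at 0.0530, 0.0863 and 0.106 RPM in the non-silencing A, non-silencing B and luciferase libraries and at 1.01, 3.79 and 2.0 RPM in the shSetdb1.4 A, shSetdb1.4 B and shSetdb1.6 libraries, in which order the values of each gene are given from here on. Angptl7 rose by 4.65 on the log2 scale (SE 0.43, adjusted p = 3.93e-05) although its values differed widely among the Setdb1 hairpin libraries. Cpn1, the catalytic subunit of carboxypeptidase N, which the liver secretes, was at 0.177, 0.151 and 0.149 RPM in the controls and at 2.12, 2.84 and 2.96 RPM with Setdb1 hairpins (4.04, SE 0.24, adjusted p = 9.09e-07). Sox2, the transcription factor of pluripotent and neural stem cells, was at 0.177, 0.194 and 0.170 RPM and then at 1.81, 2.17 and 2.43 RPM (3.56, SE 0.23, adjusted p = 1.68e-06). For all 3 genes the groups were far apart, but the naming rule took the largest rises among genes whose groups do not overlap.

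Further genes that rose have different roles. Enpp2, the lysophospholipase known as autotaxin, was at 0.495, 0.583 and 0.446 RPM in the controls and 3.26, 3.18 and 3.05 RPM with Setdb1 hairpins (log2 fold change 2.65, SE 0.16, adjusted p = 9.23e-07), and it was among the 0.388% of genes (51 genes) whose response differed in the presence of 5-azacytidine. Podxl, the sialomucin of podocytes and vessels, was at 0.884, 0.669 and 1.04 RPM and then at 4.31, 4.45 and 5.68 RPM (2.49, SE 0.20, adjusted p = 1.06e-05). Nt5e, the ectonucleotidase CD73 that makes extracellular adenosine, was at 1.66, 1.14 and 1.19 RPM and then at 5.77, 5.83 and 7.20 RPM (2.25, SE 0.16, adjusted p = 3.41e-06). Each of these genes was expressed at a low level in the controls, and its groups did not overlap, as the naming rule required. Adam8, a membrane-bound metalloproteinase, rose from 3.48, 3.75 and 3.06 RPM to 13.8, 16.6 and 20.5 RPM, the highest value being that of shSetdb1.6 (2.29, SE 0.13, adjusted p = 5.22e-07). Slfn2, a schlafen gene of immune cells, rose by 2.48 (SE 0.33, adjusted p = 0.000532). At higher levels, Il1rl1, the receptor of interleukin 33, rose from 72.2, 75.9 and 48.6 RPM to 171, 136 and 165 RPM (1.28, SE 0.23, adjusted p = 0.00348), and Colec12, a scavenger receptor with a collagen domain, rose from 63.7, 66.9 and 55.6 RPM to 145, 140 and 139 RPM (1.19, SE 0.13, adjusted p = 0.000166).

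Of the predicted transcripts, 23 changed at least 2-fold and 166 changed in all. Gm11019 rose from 1.49, 1.57 and 1.64 RPM to 9.2, 11.2 and 10.8 RPM (log2 fold change 2.73, SE 0.15, adjusted p = 5.37e-07). Gm13225 rose by 2.38 (SE 0.22, adjusted p = 3.93e-05), and A930015D03Rik by 2.38 (SE 0.15, adjusted p = 1.42e-06). Of those that fell, the pseudogene Rps15a-ps2 went from 5.21, 5.07 and 5.14 RPM to 1.26, 1.19 and 1.36 RPM (-2.02, SE 0.10, adjusted p = 2.00e-07), and its reads may be shared with its parent gene. Eif3s6-ps2, another pseudogene, fell by 1.36 (SE 0.06, adjusted p = 1.84e-07) and AI661453 by 1.28 (SE 0.13, adjusted p = 7.34e-05). The groups did not overlap for these 6 transcripts, which the naming rule required.

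Among the falls, Rims2, which organizes the release sites of synaptic vesicles, was at 3.27, 3.15 and 3.25 RPM in the controls and at 0.316, 0.187 and 0.262 RPM with Setdb1 hairpins. Its log2 fold change of -3.69 (SE 0.18, adjusted p = 1.93e-07) was the largest fall of the named genes, Setdb1 included. Rab6b, a small GTPase of Golgi traffic in neurons, fell from 5.21, 5.26 and 5.16 RPM to 1.30, 1.09 and 1.22 RPM (-2.12, SE 0.10, adjusted p = 1.93e-07). Kank4, an adaptor between adhesions and the cytoskeleton, fell from 6.4, 6.34 and 7.35 RPM to 1.49, 1.56 and 1.03 RPM (-2.32, SE 0.15, adjusted p = 1.80e-06). Replicates within a group differed little for these genes. Pitpnm3, a phosphatidylinositol transfer protein, fell by 2.13 on the log2 scale (SE 0.24, adjusted p = 0.000146), Sytl1, a synaptotagmin-like effector of RAB27, by 1.98 (SE 0.25, adjusted p = 0.000351), and Vgf, a secreted neuropeptide precursor, by 1.49 (SE 0.16, adjusted p = 0.000112). Fam150a, a secreted ligand of ALK-family receptors, fell by 1.43 (SE 0.14, adjusted p = 6.55e-05), and Susd2, a membrane protein with a sushi domain, by 1.41 (SE 0.16, adjusted p = 0.000206).

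Falls of genes at higher levels were smaller. Lgr5, the R-spondin receptor that marks several kinds of stem cell, fell from 26.7, 25.2 and 35.5 RPM to 12.3, 12.4 and 8.44 RPM (log2 fold change -1.41, SE 0.20, adjusted p = 0.00105). Efemp1, the elastic fibre protein fibulin-3, fell from 113, 109 and 138 RPM to 49.7, 66.4 and 55.0 RPM (-1.08, SE 0.13, adjusted p = 0.000219). Cobl, an actin nucleator, was at 32.2, 29.5 and 50.2 RPM and then at 7.70, 19.5 and 12.3 RPM (-1.57, SE 0.37, adjusted p = 0.0177), and Itga4, the integrin α4 subunit, was at 51.5, 56.2 and 41.7 RPM and then at 33.5, 18.1 and 17.3 RPM (-1.17, SE 0.30, adjusted p = 0.0257). Cobl and Itga4 varied widely within groups and rested on single libraries. Cobl lost the call without shSetdb1.4 A, shSetdb1.6 or the luciferase library (adjusted p up to 0.0787), and Itga4 without shSetdb1.4 B, shSetdb1.6 or either non-silencing library (adjusted p up to 0.117).

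**Figure D2:**
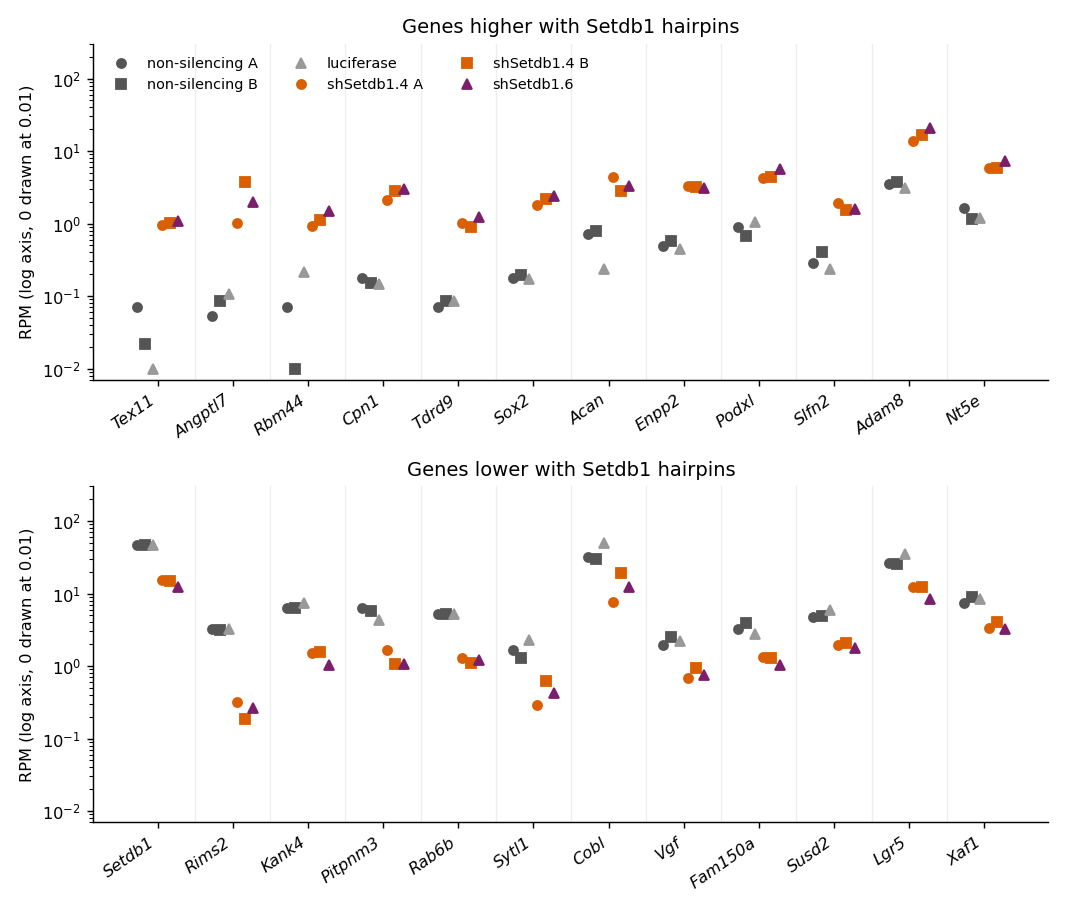
Levels (RPM, log axis, 0 drawn at 0.01) of the 12 leading rises and the 12 leading falls by the naming rule, Setdb1 included, with 1 point per library: circles and squares are replicates A and B of the non-silencing (dark grey) and shSetdb1.4 (orange) hairpins, and triangles are the luciferase (light grey) and shSetdb1.6 (purple) libraries. The 3 Setdb1 hairpin libraries lie on the same side of the 3 controls for every gene drawn, which the rule itself required, and most of the genes that rose lie under 1 RPM in the controls.

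Germline genes, which meiotic and germ cells express and somatic cells keep silent by DNA methylation and by the E2F6 and MGA complex PRC1.6, rose where they changed. Of 106 listed genes, 52 had at most 3 reads in each of the 6 libraries, and 22 passed the filter on low values. Of these 22, 12 rose (54.5%, against 9.01% of all genes tested) and 0 fell by limma (0 lower also at an unadjusted p under 0.05). The median log2 fold change of the 22 was 1.24, against 0.03 over all genes tested. However, 9 of the 22, 7 of them among the 12 rises, were under 1 RPM in every control library and entered only through the other libraries. This way of entering raises both the share and the median. Of the 13 that reached 1 RPM in a control library, 5 rose. Without any filter, 81 were tested, 18 rose and 0 fell. The count of 12 stayed at 12 when any 1 of the 6 libraries was left out and under both other scalings, although quantile normalization also called 1 member lower.

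Tex11, an X-linked gene of meiotic recombination, was at 0.0707, 0.0216 and 0 RPM in the controls, where it had at most 4 reads, and at 0.968, 1.02 and 1.10 RPM with Setdb1 hairpins (log2 fold change 5.06, SE 0.52, adjusted p = 8.02e-05). Rbm44, which encodes a component of the bridges between germ cells, was at 0.0707, 0 and 0.212 RPM and then at 0.926, 1.12 and 1.5 RPM (4.13, SE 0.64, adjusted p = 0.00169). Tdrd9, a helicase of the piRNA pathway, was at 0.0707, 0.0863 and 0.0850 RPM and then at 1.01, 0.901 and 1.22 RPM (3.69, SE 0.31, adjusted p = 1.65e-05). All 3 went from traces to about 1 RPM with either hairpin. Tex19.1, which restrains transposons in the germline, had no reads at all in the controls (0 in each) and reached 0.189, 0.289 and 0.262 RPM with Setdb1 hairpins. Against a limit of 3 reads per control library, this is at least 4.08-fold higher.

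Among the germline genes that rose, Tex15, Stag3 and Rbm46 were already detected at higher levels in the controls. Tex15, a meiotic recombination and piRNA factor, went from 5.00, 5.26 and 6.50 RPM to 15, 17.3 and 16.1 RPM (log2 fold change 1.53, SE 0.11, adjusted p = 3.69e-06). Stag3, the meiotic cohesin subunit, went from 0.813, 0.906 and 0.765 RPM to 2.42, 2.33 and 2.65 RPM (1.58, SE 0.10, adjusted p = 1.81e-06). Rbm46, an RNA-binding protein needed to enter meiosis, went from 1.04, 1.27 and 1.06 RPM to 3.62, 3.52 and 3.89 RPM (1.71, SE 0.10, adjusted p = 9.53e-07). The 3 genes shared a similar size of rise. Rnf17, a tudor-domain protein of spermatids, rose by 2.09, Rhox5 by 1.77, Xlr3b by 1.35, Xlr3a by 1.26 and Syce2, of the synaptonemal complex, by 1.21 (adjusted p 1.42e-06 to 0.000731). Xlr3a and Xlr3b are near-identical copies, between which reads may be split. The other tested germline genes did not pass the test, among them Dazl, Sycp3, Tdrkh and Tdrd7.

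The E-box CACGTG, which MGA and MAX bind, was looked for on both strands of RefSeq promoters (GRCm38.p6, 250 bases before to 50 after the start), which were found for 9858 of the genes tested. It was in 10.2% of these promoters and in 3 of the 8 promoters found for changed germline genes, and over all tested germline genes, changed or not, in 6 of 18. The 3 of changed genes are shown up to the base before the start, with the E-box in capitals, for Tdrd9 (chr12:111971309-111971558, plus strand), Rbm46 (chr3:82876484-82876733, minus strand) and Stag3 (chr5:138280259-138280508, plus strand).
Tdrd9: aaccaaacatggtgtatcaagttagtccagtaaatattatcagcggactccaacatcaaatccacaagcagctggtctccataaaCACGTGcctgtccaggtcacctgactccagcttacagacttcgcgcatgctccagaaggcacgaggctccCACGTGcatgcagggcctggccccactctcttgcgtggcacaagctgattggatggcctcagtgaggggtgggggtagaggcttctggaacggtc
Rbm46: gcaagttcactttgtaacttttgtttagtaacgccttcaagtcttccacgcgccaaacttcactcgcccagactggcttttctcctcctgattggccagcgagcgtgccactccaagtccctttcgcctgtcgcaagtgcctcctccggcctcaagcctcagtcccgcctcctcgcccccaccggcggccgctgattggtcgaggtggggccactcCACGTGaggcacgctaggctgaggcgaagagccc
Stag3: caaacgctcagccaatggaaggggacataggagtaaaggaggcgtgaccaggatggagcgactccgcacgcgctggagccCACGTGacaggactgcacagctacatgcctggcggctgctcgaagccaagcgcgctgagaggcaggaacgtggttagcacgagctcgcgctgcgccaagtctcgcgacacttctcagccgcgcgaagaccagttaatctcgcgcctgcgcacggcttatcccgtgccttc
The Tdrd9 promoter held the E-box at 2 places and the others at 1. Over the 83 promoters found for genes that rose at least 2-fold, 8.43% held it, and the median number of CpG dinucleotides in the 300 bases was 12, against 21 over all promoters. The median over the 18 promoters of genes that fell at least 2-fold was also under 21, so the low count was shared by both directions.

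Some partners of SETDB1 rose. Of 49 tested members of the silencing list, 17 rose and 0 fell by limma (1 lower at an unadjusted p under 0.05), with a median log2 fold change of 0.13. The rises were 34.7% of this list, against 9.01% of all genes tested. Of the 17 intervals of the SETDB1 complex and HUSH, 10 rose, with Atf7ip counted as 2 intervals. Atf7ip, named above as the partner of SETDB1, on chromosome 6, has a main interval that went from 87.2, 92.5 and 93.5 RPM to 184, 180 and 191 RPM (1.02, SE 0.06, adjusted p = 5.20e-07) and a second, short one that rose by 1.29 (SE 0.07, adjusted p = 6.22e-07). 2810474O19Rik, now named Resf1, whose product binds SETDB1, went from 49.6, 50.7 and 49.3 RPM to 102, 95.9 and 116 RPM (1.07, SE 0.09, adjusted p = 1.33e-05). Both genes reached about the same multiple of their control level with either hairpin.

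The other partners moved less. Mbd1, a methyl-CpG binding protein that can bring SETDB1 to methylated DNA, rose by 0.43 (SE 0.08, adjusted p = 0.00421), and Zfp809, a KRAB protein that binds retroviral sequence, by 0.35 (SE 0.06, adjusted p = 0.00289). D14Abb1e, the HUSH subunit also called Tasor, rose by 0.27 (SE 0.05, adjusted p = 0.00683), whereas the log2 fold changes of the HUSH members Mphosph8 (0.10), Pphln1 (0.05) and Morc2a (0.08) did not pass the test. Trim28 was at 205, 209 and 202 RPM and then at 228, 226 and 247 RPM (0.19, SE 0.04, adjusted p = 0.0143), and its call was lost without shSetdb1.6 (adjusted p = 0.0652) or the luciferase library (adjusted p = 0.0564). Of the DNA methylation genes, Dnmt1 went from 83.0, 85.4 and 82.8 RPM to 104, 98.9 and 119 RPM (0.36, SE 0.07, adjusted p = 0.00491). Its cofactor Uhrf1 rose by 0.43 (SE 0.10, adjusted p = 0.0194, but 0.0857 without shSetdb1.6 and 0.0822 without the luciferase library), and the log2 fold changes of Dnmt3a (0.04) and Dnmt3b (0.21) did not pass. Of 11 other H3K9 methyltransferases and demethylases, 1 rose (Suv39h1, 0.20, adjusted p = 0.0308, not called without any 1 library other than shSetdb1.4 B), and the log2 fold changes of Ehmt1 (0.08), Ehmt2 (-0.01) and Setdb2 (-0.01) did not pass. Without shSetdb1.6, 9 of the silencing list were called, and without the luciferase library 11.

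Many genes of replication and mitosis rose. Of 86 tested members, 53 rose and 0 fell by limma (75 and 0 at an unadjusted p under 0.05), and their groups did not overlap for 79, against 34.4% of all genes tested (4518 genes). All 44 mitosis genes lay higher in each Setdb1 hairpin library than in each control, against 24% of all genes tested, and 37 passed the test, with a median log2 fold change of 0.41. Of the 42 genes of DNA replication, 16 rose, with a median of 0.31. Ect2, a regulator of cytokinesis, went from 23.4, 24.5 and 22.1 RPM to 32.1, 31.5 and 36.2 RPM (0.51, SE 0.11, adjusted p = 0.00963). Plk1, a mitotic kinase, went from 28.2, 27.6 and 24.7 RPM to 36.1, 36.5 and 41.3 RPM (0.50, SE 0.09, adjusted p = 0.003). Prim1, the catalytic subunit of DNA primase, went from 8.38, 9.47 and 7.80 RPM to 12, 12.6 and 13.7 RPM (0.58, SE 0.11, adjusted p = 0.00435). In each case shSetdb1.6 gave the highest value and the luciferase library the lowest.

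The count rested on these libraries. It was 13 without shSetdb1.6 and 16 without the luciferase library, 29 and 34 without non-silencing A and B, 49 and 41 without shSetdb1.4 A and B, and 40 and 41 under median centring and quantile normalization. Relative to the control mean, the median mitosis gene was at 0.31, 0.34 and 0.59 (log2) in the shSetdb1.4 A, shSetdb1.4 B and shSetdb1.6 libraries and between -0.09 and 0.07 in the controls. Both hairpins thus lay above the controls, and the shSetdb1.6 library, with the least Setdb1 left, lay furthest. That order rests on 1 library, in which the level of Setdb1, the hairpin and the cells cannot be told apart. Ect2 and Foxm1, the transcription factor of mitotic genes (0.47), had adjusted p of 0.0533 and 0.0663 without shSetdb1.6, while Plk1 and Prim1 passed the test with any 1 library left out.

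The promoters of these genes carry known cell cycle motifs. On both strands of the same windows, the CHR element TTTGAA was in 67.6% of 37 mitosis promoters against 11.7% of all promoters, and the box CCAAT in 75.7% against 38.9%. The E2F site TTCCCGC was in 39.4% of 33 replication promoters against 8.52%. Among the 875 promoters of all genes that rose, the CHR element was in 16.9% and the E2F site in 13.3%, and in 7.35% each of the 313 promoters of genes that fell. The 150 bases before the start are shown for Ect2 (chr3:27153879-27154028, minus strand), with the CHR element and CCAAT boxes in capitals, and for Prim1 (chr10:128015065-128015214, plus strand), with an E2F site that overlaps a CCAAT box in capitals, since they lead their groups among members that hold these motifs.
Ect2: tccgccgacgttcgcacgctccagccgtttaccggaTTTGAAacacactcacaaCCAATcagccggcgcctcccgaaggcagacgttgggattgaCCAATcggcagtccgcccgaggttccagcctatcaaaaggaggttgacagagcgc
Prim1: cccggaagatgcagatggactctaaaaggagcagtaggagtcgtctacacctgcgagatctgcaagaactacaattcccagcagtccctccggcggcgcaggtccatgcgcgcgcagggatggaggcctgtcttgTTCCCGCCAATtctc
Such matches describe the windows and do not show that a factor was bound.

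The list of cell cycle inhibitors and senescence genes moved both ways. Of 16 tested genes of this list, 5 rose and 4 fell, with 3 rises without shSetdb1.6, shSetdb1.4 A or either non-silencing library, 2 falls without luciferase and 2 rises under median centring. Thus 31.25% rose and 25% fell, against 9.01% and 3.4% of all genes tested. Cdkn2a, which encodes p16 and p19Arf, went from 39.0, 36.2 and 37.9 RPM to 28.0, 25.6 and 25.4 RPM (log2 fold change -0.52, SE 0.07, adjusted p = 0.000421), and its neighbour Cdkn2b, which encodes p15, went from 89.2, 84.2 and 95 RPM to 71.2, 66.6 and 57.9 RPM (-0.46, SE 0.07, adjusted p = 0.00168). Cdkn1a, the p53 target p21, fell by 0.30 (SE 0.07, adjusted p = 0.0147, up to 0.0706 without single libraries, namely shSetdb1.6 or the luciferase library). The groups did not overlap for these 3. Cdkn1b, which encodes p27, rose by 0.35 (SE 0.07, adjusted p = 0.00506). Not all members counted are inhibitors: Hmga1 fell and Lmnb1 rose. With 1 library left out their log2 fold changes were -0.64 to -0.40 and 0.30 to 0.43. Their limma calls were lost for 4 and 5 of the libraries left out (adjusted p up to 0.0768 and 0.176). Of 42 p53 targets tested, 4 rose and 3 fell (1 without shSetdb1.6 or luciferase, 5 without shSetdb1.4 B, 6 under median centring and 5 under quantile normalization), with a median of 0.00. With the values as deposited, 9.52% of the p53 targets rose, near the 9.01% of all genes tested, and 7.14% fell, against 3.4%.

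Hox genes, which record position along the body and limb, moved in both directions. Of 35 tested, 5 rose (14.3%, against 9.01% of all genes tested) and 8 fell (22.9%, against 3.4%). Those that rose were Hoxd13, Hoxd12, Hoxd11, Hoxa13 and Hoxa11, the genes of the distal limb at one end of 2 clusters. Hoxd13 went from 31.0, 28.4 and 28.4 RPM to 44.5, 44.4 and 46.2 RPM (log2 fold change 0.62, SE 0.06, adjusted p = 2.85e-05). Hoxd12 went from 3.89, 3.41 and 3.17 RPM to 5.64, 5.85 and 5.65 RPM (0.72, SE 0.08, adjusted p = 0.000127), and Hoxa13 from 6.36, 6.0 and 7.12 RPM to 8.50, 8.63 and 8.54 RPM (0.40, SE 0.07, adjusted p = 0.0036). For these 3 the Setdb1 hairpin libraries lay close together and above all controls.

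The Hox genes that fell have lower numbers and lie mainly in the B and C clusters. Hoxc8 went from 69.4, 65.1 and 80.2 RPM to 42.9, 56.0 and 46.0 RPM (-0.57, SE 0.10, adjusted p = 0.00365), and Hoxc6 from 45.2, 43.4 and 49.4 RPM to 32.3, 36.6 and 34.7 RPM (-0.41, SE 0.07, adjusted p = 0.00307). Hoxc5 (-0.26), Hoxc4 (-0.30), Hoxb5 (-0.51), Hoxb3 (-0.24), Hoxb2 (-0.29) and Hoxd3 (-0.59) fell too. With 1 library left out, the rises numbered 5 to 7 and the falls 2 to 11. The falls numbered 2 without the luciferase library, 3 without shSetdb1.6, shSetdb1.4 A or non-silencing A, and 5 without non-silencing B, and Hoxc8 and Hoxc6 were called each time.

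**Figure D3:**
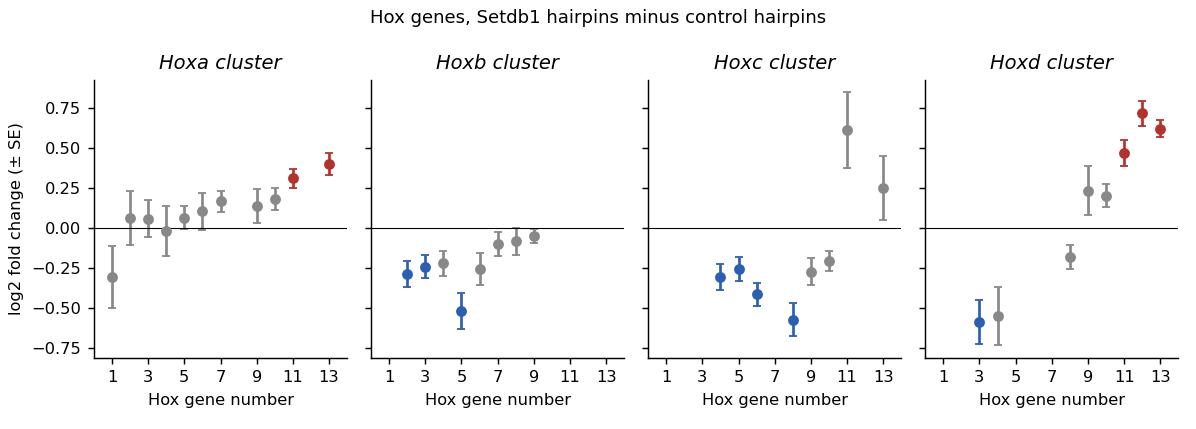
Log2 fold change (points, with SE) of each tested Hox gene by its number in the 4 clusters, with called rises in red, called falls in blue and other genes in grey. The called rises are numbers 11 to 13 of the Hoxa and Hoxd clusters, and the called falls are numbers 2 to 8 of the Hoxb, Hoxc and Hoxd clusters.

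Other transcription factors of regional identity changed in both directions. Of 56 tested, 11 rose (19.6%, against 9.01% of all genes tested) and 3 fell (5.36%, against 3.4%). However, 9 rose and 7 fell under median centring and 8 rose and 5 fell under quantile normalization, where falls over all genes were also more frequent. The rises numbered 5 without shSetdb1.6, 6 without the luciferase library and 7 without shSetdb1.4 B or either non-silencing library, while 1 fell without shSetdb1.6, non-silencing B or luciferase and 5 fell without shSetdb1.4 B. Lhx2, of the limb bud ridge and forebrain, went from 0.424, 0.453 and 0.383 RPM to 1.37, 1.41 and 1.19 RPM (log2 fold change 1.66, SE 0.20, adjusted p = 0.000313). The hindlimb genes Tbx4 (0.76, SE 0.11, adjusted p = 0.00096) and Pitx1 (0.75, SE 0.10, adjusted p = 0.000471) rose by a similar amount, as did Sall1 (0.72, SE 0.15, adjusted p = 0.00995). None of these 4 lost its call with 1 library left out.

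Skeletal genes rose where they changed. Of 46 listed cartilage and bone genes, 23 were tested, 9 rose and 0 fell by limma (0 lower at an unadjusted p under 0.05), with a median log2 fold change of 0.45. The rises were 39.1% of the 23, against 9.01% of all genes tested. Of the 12 tested cartilage genes, 7 rose. Scx, the transcription factor of tendon progenitors, went from 1.43, 1.42 and 1.17 RPM to 4.50, 3.26 and 4.25 RPM (1.57, SE 0.19, adjusted p = 0.000318). Col9a3, a chain of cartilage collagen IX, went from 1.41, 1.62 and 1.57 RPM to 3.41, 3.64 and 3.20 RPM (1.15, SE 0.11, adjusted p = 5.90e-05), and Hapln1, the link protein of cartilage, from 0.336, 0.561 and 0.340 RPM to 1.51, 1.27 and 1.22 RPM (1.73, SE 0.26, adjusted p = 0.00144). The groups were well separated for these.

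Acan, the main proteoglycan of cartilage, was at 0.725, 0.798 and 0.234 RPM and then at 4.38, 2.82 and 3.34 RPM (2.75, SE 0.81, adjusted p = 0.0452). Its call was lost with any 1 library left out (adjusted p 0.0656 to 0.168), and that of Col2a1, collagen II, was lost for 5 of them, with adjusted p up to 0.17 without shSetdb1.6. Of the list, 4 were called without shSetdb1.6, 5 without shSetdb1.4 B, non-silencing A or luciferase, and 6 without either other library. Of the 23, 3 were under 1 RPM in every control library, and all 3 rose, while of the other 20, 6 rose and 0 fell.

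Epithelial genes were mostly silent: of 84 listed, 46 had at most 3 reads in each library and 18 were tested. Of these, 5 rose (27.8%, against 9.01% of all genes tested) and 0 fell by limma (1 lower at an unadjusted p under 0.05). Krt18, a keratin of simple epithelia, went from 3.11, 2.93 and 2.57 RPM to 9.07, 10.1 and 9.66 RPM (log2 fold change 1.74, SE 0.10, adjusted p = 5.22e-07). Its partner keratin Krt8 had 1 read in each control library and 47 reads over the 3 Setdb1 hairpin libraries, a ratio of RPM of 15.8 (95% exact interval 5.10 to 79.6, counting error only). Sfn, the epithelial protein 14-3-3 sigma, went from 5.50, 5.76 and 5.55 RPM to 17.2, 15 and 17.1 RPM (1.55, SE 0.08, adjusted p = 2.60e-07). Dsc2, a desmosomal cadherin, rose by 1.12 (SE 0.16, adjusted p = 0.00103), and Pkp1, a desmosomal plaque protein, by 1.55 (SE 0.36, adjusted p = 0.0175, but 0.0735 without shSetdb1.6, 0.0551 without shSetdb1.4 A and 0.0530 without luciferase). The summed level of the list was 368 to 380 RPM in the controls and 415 to 429 RPM with Setdb1 hairpins.

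Neuronal and synaptic genes held the leading falls named above (Rims2, Pitpnm3, Rab6b and Vgf) as well as Sox2. Of 58 tested, 9 rose (15.5%, against 9.01% of all genes tested) and 6 fell (10.3%, against 3.4%), with a median of -0.01. The rises numbered 5 without shSetdb1.6, shSetdb1.4 A or luciferase. Shank2, a scaffold of excitatory synapses, went from 4.67, 4.12 and 3.76 RPM to 8.10, 8.53 and 9.68 RPM (log2 fold change 1.07, SE 0.10, adjusted p = 2.90e-05), and Gap43, of growing axons, rose by 0.87 (SE 0.18, adjusted p = 0.00939). The summed level of the list was 1391 to 1412 RPM in the controls and 1457 to 1484 RPM with Setdb1 hairpins.

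**Figure D4:**
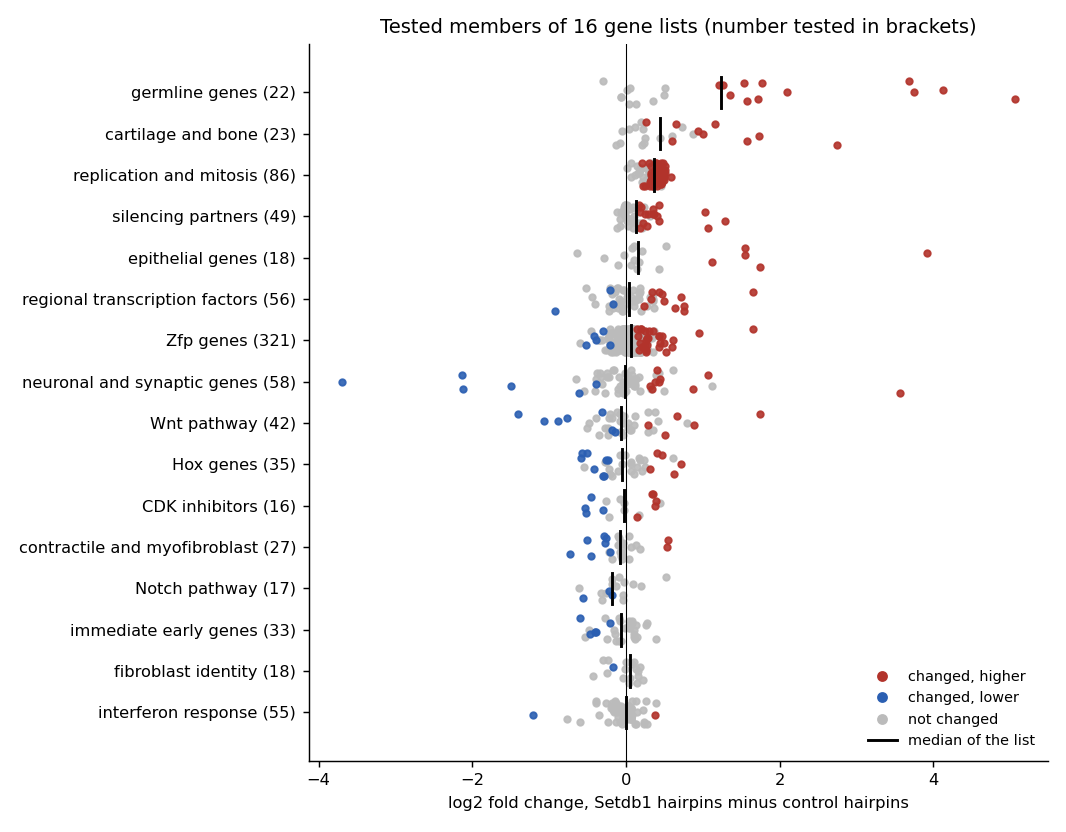
Log2 fold change of the tested members of 16 gene lists (Setdb1 hairpins minus control hairpins), with called rises in red, called falls in blue, other members in grey and the median of each list as a black line. Germline, cartilage and bone, and replication and mitosis genes sit to the right of 0, the neuronal list spreads to both sides, and the interferon and fibroblast identity lists centre on 0.

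Genes of the Wnt pathway changed in both directions. Of 42 tested, 5 rose (11.9%, near the 9.01% of all genes tested) and 7 fell (16.7%, against 3.4%), of which 4 fell without the luciferase or the non-silencing B library. Wnt4 fell from 6.70, 6.47 and 7.46 RPM to 2.69, 4.06 and 3.20 RPM (log2 fold change -1.07, SE 0.16, adjusted p = 0.00145), and Rspo2, a ligand of LGR5 that amplifies the signal, from 31.5, 29.0 and 33.6 RPM to 14.5, 19.8 and 17.0 RPM (-0.88, SE 0.12, adjusted p = 0.000487). Lgr5 fell as given above. Wnt5b rose from 0.353, 0.345 and 0.383 RPM to 1.45, 1.12 and 1.07 RPM (1.74, SE 0.16, adjusted p = 4.15e-05), and Nkd2, an inhibitor of the pathway, fell by 0.77 (SE 0.16, adjusted p = 0.00975). The groups of these ligands did not overlap.

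In the Notch pathway, 0 of 17 tested genes rose by limma (1 at an unadjusted p under 0.05) and 3 fell (17.6%, against 3.4% of all genes tested). Jag1, a ligand, went from 188, 203 and 192 RPM to 152, 132 and 114 RPM (-0.56, SE 0.09, adjusted p = 0.00289). The target genes Hes1 (-0.09) and Hey1 (-0.04) did not pass the test. With 1 library left out, 1 fall was called, or 2 without either shSetdb1.4 library.

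Of 27 tested contractile genes, 7 fell (25.9%, against 3.4% of all genes tested) and 2 rose (7.41%, against 9.01%), with a median of -0.08. Myocd, the coactivator that drives smooth muscle genes, went from 4.54, 4.81 and 5.38 RPM to 2.59, 3.31 and 2.98 RPM (log2 fold change -0.73, SE 0.13, adjusted p = 0.00312). Itga8 fell by 0.51 and Myl9, the regulatory light chain of smooth muscle myosin, by 0.29, but both calls were lost without shSetdb1.6 (adjusted p 0.0953 and 0.0721) or luciferase (0.0784 and 0.0632), and that of Itga8 without non-silencing B (0.0597). Of the list, 3 fell without shSetdb1.6 and 4 without luciferase. Des, the intermediate filament desmin, rose from 13.1, 15.3 and 12.1 RPM to 19.3, 19.5 and 19.3 RPM (0.53, SE 0.11, adjusted p = 0.00763). Of 33 immediate early genes, 5 fell and 0 rose by limma (10 and 0 at an unadjusted p under 0.05), led by the orphan nuclear receptor Nr4a1 (-0.60, SE 0.14, adjusted p = 0.0143, but 0.0624 without luciferase and 0.0554 without shSetdb1.6 or non-silencing A). These falls were 15.2% of the 33, against 3.4% of all genes tested. Of the 33, 2 fell without shSetdb1.6 and 3 without luciferase or non-silencing A. Under each of the other scalings 8 fell, but falls over all genes were also more frequent there.

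Of 63 glycoproteins and proteoglycans, 10 rose (15.9%, against 9.01% of all genes tested) and 6 fell (9.52%, against 3.4%). Ltbp1, which stores latent TGF-β in the matrix, went from 368, 381 and 334 RPM to 557, 542 and 576 RPM (log2 fold change 0.63, SE 0.06, adjusted p = 3.93e-05). Of 50 proteases and inhibitors of the matrix, 2 rose (4%) and 7 fell (14%), among them Adamts1 from 269, 269 and 350 RPM to 185, 209 and 177 RPM (-0.63, SE 0.10, adjusted p = 0.00189). Of the proteases and inhibitors, 1 rose with any 1 library left out and under both other scalings. Falls numbered 3 without shSetdb1.6 or luciferase, 4 without shSetdb1.4 A and 10 under median centring, where falls over all genes were also more frequent. Of 31 collagens, 2 rose (6.45%, but 1 gene without any 1 library other than shSetdb1.4 A) and 3 fell (9.68%). Of 18 fibroblast identity genes, 1 fell (Prrx1, -0.17, adjusted p = 0.029, not called without any 1 library other than shSetdb1.4 B) and 0 rose by limma (1 at an unadjusted p under 0.05), and the log2 fold changes of Col1a1 (0.14) and Thy1 (-0.30) did not pass.

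**Figure D5:**
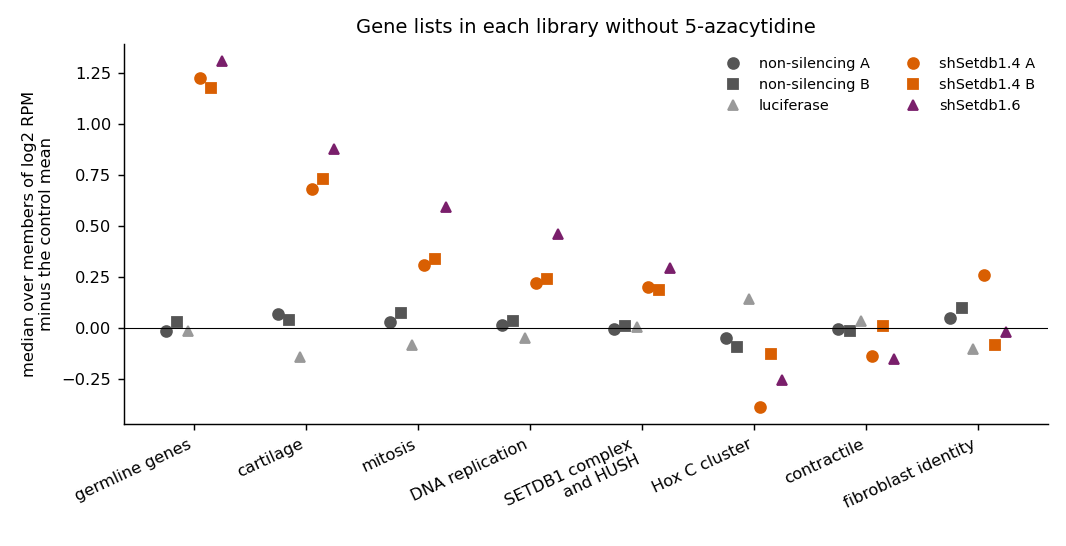
For 8 gene lists, the median over the tested members of log2 RPM minus the control mean, in each of the 6 libraries (symbols as for the leading genes). The germline, cartilage, mitosis, DNA replication and SETDB1 complex lists lie higher in all 3 Setdb1 hairpin libraries, with shSetdb1.6 highest in each, the Hox C cluster lies lower, and the contractile and fibroblast identity lists overlap between the groups.

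Zinc-finger genes, a family of which many are known SETDB1 targets, rose at the background rate. Of 321 tested Zfp genes, 29 rose and 5 fell, so 9.03% rose against 9.01% of all genes tested, and 1.56% fell against 3.4%. Zfp37 led the family, from 14.9, 15.6 and 15 RPM to 45.5, 47.7 and 49.9 RPM (log2 fold change 1.65, SE 0.06, adjusted p = 2.62e-08). On chromosome 17, Zfp760 (0.95, SE 0.08, adjusted p = 2.03e-05), Zfp229 (0.43) and Zfp820 (0.49) rose side by side with 3110052M02Rik. With 1 library left out, 13 to 19 Zfp genes rose, the fewest without shSetdb1.6, and 16 rose with median centring. The falls numbered 3 without shSetdb1.6 or luciferase and 8 under each of the other scalings, where falls over all genes were also more frequent.

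Some neighbouring genes changed together. There were 29 runs of at least 3 neighbouring tested genes that changed in 1 direction, with 96 of the 1630 changed genes in all, 20 of them runs of rises and 9 of falls. Besides the zinc-finger run, they held Hoxd13, Hoxd12 and Hoxd11 with Evx2 and Gm20440, Hoxa11 with its antisense transcript and Hoxa13, Hoxc8 to Hoxc4, Hoxb3 and Hoxb2 with an antisense transcript, Cdkn2a with Cdkn2b and Elavl2, the tumour necrosis factor receptors Tnfrsf26, Tnfrsf22 and Tnfrsf23, and Igfbp2 with Igfbp5 and Tns1. Of the 96 genes, 51 lost the call with at least 1 library left out. Strand was not stated for the counting of this table, so reads of a gene and its antisense partner cannot be told apart. How many runs a set of this size would give by position alone was not tested.

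The share of changed genes varied along the genome. Over 183 windows of 10 Mb with at least 30 tested genes the median share was 11.3%, with a range of 0% to 37.1%. The highest was chromosome 10 from 110 to 120 Mb, where 13 of 35 genes changed, among them Lgr5 and Glipr1, a secreted CAP-family protein that went from 35, 35 and 34.6 RPM to 109, 140 and 123 RPM (log2 fold change 1.82, SE 0.09, adjusted p = 2.22e-07). On chromosome 6, 34.4% of 32 genes changed from 130 to 140 Mb, which holds Atf7ip, and 30.2% of 43 from 140 to 150 Mb, which holds 2810474O19Rik, and on chromosome 15, 30.8% of 39 from 30 to 40 Mb, which holds Rims2. Differences between the embryos of the groups in these regions were not tested, and they cannot be told apart from the hairpin. Within 5 Mb of Setdb1 itself, 5 of 111 tested genes changed (4.5%), among them the cornified envelope genes Sprr1a, from 4.70, 4.19 and 4.23 RPM to 12, 16.2 and 17.7 RPM (1.79, SE 0.15, adjusted p = 1.51e-05), and Sprr2k (1.08, SE 0.09, adjusted p = 1.79e-05). Other epidermal genes of that stretch did not pass the test. Sprr3 (-0.57), Ivl (-0.44), Crct1 (-0.505) and Lce1g (-0.20) were lower, and Lor (0.26) and Lce1h (0.28) were higher.

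In several programmes a smaller share rose than the 9.01% of all genes tested, while the share that fell lay on either side of 3.4%. Of 55 interferon response genes, 1 rose and 1 fell (Xaf1, an antagonist of apoptosis inhibitors, from 7.39, 8.82 and 8.33 RPM to 3.35, 4.06 and 3.24 RPM, log2 fold change -1.21, SE 0.19, adjusted p = 0.00156). Each was 1.82% of this list. Under median centring and quantile normalization 2 and 3 of the list fell, where falls over all genes were also more frequent. Of 44 imprinted genes, 1 rose (2.27%, but 2 genes without luciferase) and 3 fell (6.82%, above the 3.4% of all genes tested). The imprinted falls numbered 1 without shSetdb1.6 or luciferase, but 6 under median centring. Of 77 subunits of oxidative phosphorylation, 2 rose (2.6%) and 3 fell (3.9%). These falls numbered 1 without shSetdb1.6, shSetdb1.4 A, non-silencing A or luciferase, but 6 under median centring. Of 47 stress response genes, 2 rose (1 under median centring or without shSetdb1.6, shSetdb1.4 A, non-silencing A or luciferase). Another 2 fell (1 without shSetdb1.6 or luciferase, but 4 under median centring), so 4.26% of the stress list rose and 4.26% fell. Of 45 proteasome genes, 0 changed by limma under each of the 3 scalings (3 were higher at an unadjusted p under 0.05, and 1 rose without a filter on low values). Of 82 ribosomal protein genes, 4 rose (4.88%) and 1 fell (1.22%), among them Rps2 (-0.81, SE 0.04, adjusted p = 2.70e-07) and Rpl30 (0.87, SE 0.06, adjusted p = 5.89e-06). Ribosomal protein genes share sequence with many pseudogenes, so these values are uncertain.

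Markers of other cell types were low. Of 41 macrophage and blood genes, 22 had at most 3 reads in each library and 4 were tested, of which Lgals3, which fibroblasts also express, rose by 0.69 (SE 0.16, adjusted p = 0.0171, but 0.0857 without shSetdb1.6, 0.0543 without shSetdb1.4 B and 0.0602 without non-silencing B). The summed level of the list was 31.0 to 35.2 RPM in the controls and 37.7 to 52.3 RPM with Setdb1 hairpins. Of 24 endothelial genes, 7 were tested and 0 changed by limma (3 higher at an unadjusted p under 0.05), with summed levels of 123 to 145 RPM and 157 to 180 RPM. Whether few cells of another type contributed to the epithelial, cartilage or neuronal rises was not tested, and in bulk RNA fewer cells of a type and less RNA per cell cannot be told apart. Fibroblast identity genes summed to 27940 to 33080 RPM in the controls and 29920 to 37220 RPM with Setdb1 hairpins.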

How the data were processed

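PolyA RNA was sequenced as single-end reads by the authors, and the deposited table gives log2 RPM (reads per 1000000) for 25965 gene intervals in 13 libraries. The submitters' processing notes name CASAVA 1.4 and the build mm10. The aligner and counter of this table are not given in the sources used here. In the deposited log2 values every entry was a whole number of reads, within 0.02 reads or 0.1% of the value, with a floor of 0.9 read, so totals of 41.9 to 58.8 M reads were recovered and 1 read was worth 0.017 to 0.0239 RPM, which limits the precision of low genes. Intervals and floors cover counting error only.

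Groups were taken from the sample labels. The 1 library whose labels give 5-azacytidine but no hairpin was in no group and entered no fit. Genes with at least 1 RPM in 3 of the 12 hairpin libraries were fitted by limma 3.58.1 (R 4.3.3) on log2 RPM, with 4 groups of 3 libraries sharing 1 estimate of the spread and a trend on mean level, with the Benjamini-Hochberg adjustment across 13134 genes. Alternatives were other scalings and filters, pseudocounts of 0.1 and 1 RPM, a replicate block and leaving out each library.

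Genes were named by rule: Setdb1, the 12 largest rises and 12 largest falls with no overlap between groups and at least 1 RPM in the higher group, up to 4 changed members of each of 48 gene lists, the members of runs of at least 3 neighbours, the genes within 5 Mb of Setdb1, and the 3 largest predicted transcripts in each direction. Genes outside this rule were named after their values were seen: the further germline, SETDB1 complex, DNA methylation and H3K9 genes, Cdkn1a, Cdkn1b, Hoxb5, Sall1, Dsc2, Rspo2, Nkd2, Shank2, Gap43, Ltbp1, Zfp809 and the members named as not passing. The members and lists were chosen with earlier results of these data known. List counts are descriptions beside the counts over all genes, without a set test. Sequences were read from GENCODE vM21 transcripts and RefSeq promoters (GRCm38.p6) with Python 3.11.15. Genes that the rule picked and the text does not print enter the counts only.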

Additional observations from a re-analysis of the deposited data

Results flagged for a closer look

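For 51 of 13134 genes (0.388%) the effect of Setdb1 hairpins differed between cells with and without 5-azacytidine by the interaction term of the limma fit. Of the genes named here by the rule on the largest changes and lists, Enpp2 and Krt8 were flagged for this. The log2 fold change of Enpp2 was smaller with 5-azacytidine by 1.39 (interaction -1.39), and that of Krt8 was smaller by 2.53 (interaction -2.53), where Krt8 had 1 read in each control library without the drug.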

How the results depend on the processing

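The count of changed genes (1630) moved most with the libraries in the fit: with 1 library left out it lay between 721 (without shSetdb1.6) and 1443, and it was 839 without luciferase and 981 without non-silencing A. On the lettered libraries alone the count was 470 with no replicate block, 748 with the replicate block and 319 with a crossed block, which was chosen after seeing the data. The letters did not pair the libraries (correlations of deviations 0.19 for A and -0.47 for B), so the block is no test of these calls. The count was between 1328 and 1648 under the other scalings, filters, pseudocounts and with 6 libraries in the fit. A planned count model on recovered reads was not run. Setdb1 was called in each of these fits, with log2 fold changes of -1.79 to -1.62 with 1 library left out. Of the 292 named genes that changed, 130 were called under every one of up to 15 alternatives, which did not include the crossed block. Thbs1 changed sign, at 0.00 after quantile normalization. Depth limits the values under about 0.1 RPM, which rest on a few reads.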
